A study of Mus musculus with 18 samples.

Results

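The genes described here are 40 that encode the machinery of autophagy and its link to the lysosome, chosen by name: the kinase complex that starts an autophagosome, the lipid kinase complex and lipid-binding proteins that follow it, the enzymes of the ubiquitin-like conjugation systems, the LC3 and GABARAP proteins, cargo receptors, and TFEB with membrane proteins and cathepsins of the lysosome. Of the 40 names, 39 were found among the 37303 genes listed, and all 39 had a usable value in every group. The remaining name, *Atg101*, was not found, and the gene carrying its identifier was listed under the older symbol *9430023L20Rik*. It was measured at 23.6, 18.1, 21.1, 15.9, 20.3 and 17.1 FPKM in the group order given below, was called in none of the 8 comparisons, and is not counted among the 39.

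Livers came from 18 adult mice of both sexes on the C57BL/6J background, in 6 groups of 3. Wild type mice (WT), mice with a whole-body deletion of *Gcn2* (Gcn2-/-) and mice with a whole-body deletion of *Atf4* (Atf4-/-) received either native *E. coli* L-asparaginase (ASNase, 3 IU per g body weight) or the phosphate buffered saline it is dissolved in (PBS), injected into the abdomen on 8 consecutive days. Livers were taken 7.5 h after the last injection by the sample labels, which give ages of 8 to 16 weeks in one field and 8 to 12 weeks in another. Sex was mixed within groups: the labels list 1 male for WT PBS and for each Gcn2-/- group, and 2 males for WT ASNase and for each Atf4-/- group. As neither deletion is restricted to a cell type, the gene lost is missing in liver cells and in the rest of the animal alike, and effects of both places cannot be told apart.

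ASNase breaks down asparagine and, more slowly, glutamine. GCN2 is a kinase that senses uncharged tRNA and phosphorylates eIF2 in amino acid shortage, and this favours translation of the transcription factor ATF4. Autophagy is the other classic answer of liver to scarcity: the ULK1 kinase complex is released from inhibition by mTORC1, a class III PI3-kinase marks the site, LC3 and GABARAP proteins are attached to lipid on the growing membrane, receptors such as p62 bring cargo to them, and the closed vesicle fuses with a lysosome, where cathepsins digest its contents. TFEB, a transcription factor held in the cytoplasm by mTORC1, binds E-box motifs near lysosomal and autophagy genes, and ATF4 is known to act on some autophagy genes in cultured cells. Messenger RNA shows how much of each transcript is present and does not measure autophagic flux, lipidation or enzyme activity.

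Promoter sequences were read for the genes because E-boxes of the TFEB type and motifs of the ATF4 type are the letters a reader would look for beside these expression values. RefSeq windows (build GRCm38.p6) of 300 bases, 250 before and 50 after an annotated start, were on hand for 32 of the 39 genes, with 37 windows in all; none was used for *Atg12*, *Atg16l1*, *Becn1*, *Ctsb*, *Map1lc3a*, *Pik3c3* and *Rb1cc1*. Both strands were searched for the E-box CACGTG, for its longer form TCACGTG, which contains the shorter one, and for GATGNAA, a part of ATF4 composite sites. Upstream stretches are shown for *Lamp1* and *Atg3*, which held several TCACGTG matches, and for *Gabarapl1* and *Ulk2*, which had the calls described below. They are written 5′ to 3′ on the strand of the gene, with bases of any motif match in capitals, and lie at chr8:13158911-13159160 (plus strand), chr16:45158579-45158784 (plus strand), chr6:129532942-129533159 (plus strand) and chr11:61855093-61855342 (minus strand), respectively.
Lamp1: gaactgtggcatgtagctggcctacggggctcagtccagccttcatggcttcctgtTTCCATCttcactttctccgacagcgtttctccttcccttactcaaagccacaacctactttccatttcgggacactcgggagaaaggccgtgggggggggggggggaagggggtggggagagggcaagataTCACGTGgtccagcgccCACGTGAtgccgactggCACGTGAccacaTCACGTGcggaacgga
Atg3: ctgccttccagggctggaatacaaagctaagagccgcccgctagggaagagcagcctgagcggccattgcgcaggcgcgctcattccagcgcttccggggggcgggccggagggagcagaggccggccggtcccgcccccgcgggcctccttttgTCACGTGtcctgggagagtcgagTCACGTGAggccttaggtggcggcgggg
Gabarapl1: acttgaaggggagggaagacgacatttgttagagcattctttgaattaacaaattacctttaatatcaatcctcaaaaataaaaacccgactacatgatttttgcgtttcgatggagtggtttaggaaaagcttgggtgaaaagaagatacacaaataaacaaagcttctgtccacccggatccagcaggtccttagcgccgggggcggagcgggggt
Ulk2: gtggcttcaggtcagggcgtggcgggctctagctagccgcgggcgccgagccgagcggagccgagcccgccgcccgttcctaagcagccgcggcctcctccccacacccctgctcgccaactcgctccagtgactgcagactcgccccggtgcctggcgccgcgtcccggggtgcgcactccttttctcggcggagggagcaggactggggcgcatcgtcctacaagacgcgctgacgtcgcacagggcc

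In *Lamp1*, the first run of capitals is a GATGNAA match on the opposite strand and the 4 that follow are E-boxes. *Atg3* held 2 E-boxes, the second of which reads as TCACGTG on both strands. The windows of *Gabarapl1* and *Ulk2* held none of the 3 motifs, which says only that these letters are not in these windows. CACGTG was found in 8 of the 37 windows (21.6%), belonging to *Atg14*, *Atg3*, *Atg5*, *Atg7*, *Bnip3*, *Ctsd*, *Ctsl* and *Lamp1*, beside 7.15% of all 32851 windows of this length. TCACGTG was found in 5 of the 37 (13.5%), those of *Atg14*, *Atg3*, *Atg7*, *Ctsd* and *Lamp1*, beside 3.77% of all windows, and GATGNAA in 5 (13.5%), those of *Atg2a*, *Atg4c*, *Ctsl*, *Lamp1* and *Tfeb*, beside 12.3%. The windows of the autophagy and lysosome genes were richer in G and C, with a median of 60.0% against 52.7% over all windows. The window of *Ctsl* lay inside the longer gene model of the GENCODE annotation and is therefore not printed. The windows of *Atg7* and *Atg14*, counted above with a TCACGTG, also lay wholly inside longer gene models. Their matches are therefore not upstream of the first annotated start. In *Ctsd*, the E-box at −245 from the RefSeq start is upstream of it, and that at −98 lies inside the gene model.

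Expression was available as 1 value per gene and group, estimated by Cuffdiff from the 3 libraries of a group together, in FPKM (fragments scaled to the length of the transcript and to the mapped reads of the library), with a lower and an upper bound. Values of single mice were not part of the table, so no spread between mice, SD or p-value can be given, and each difference is set against the width of the intervals. Among the 39 genes, the interval typically reached 47.7% to 50.9% of the value to either side (medians by group), so only large differences stand clear of it. Differences are of log2(FPKM + 0.1), on which changes of genes with low values appear smaller than they are. A gene was eligible in a comparison with a usable value above 0 in both groups and an FPKM over 3 in either, and called when the log2 difference was over 1.5 in size and the intervals did not overlap; "rose" and "fell" are used only of calls. A smaller difference is described as beyond the combined error when it was larger than the root of the summed squares of both errors on the log2 scale. Where 6 values follow a gene, they stand in the order WT PBS, WT ASNase, Gcn2-/- PBS, Gcn2-/- ASNase, Atf4-/- PBS and Atf4-/- ASNase.

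The gene targeted in each strain was read first. *Atf4* was measured at 50.4, 63.1, 60.0, 68.1, 32.3 and 29.3 FPKM, lowest in both Atf4-/- groups. The gene was still measured there, and the intervals of 19.1 to 45.5 in Atf4-/- PBS and 29.7 to 71.1 in WT PBS overlap, so the value over the whole gene does not by itself show its loss. *Eif2ak4*, which encodes GCN2, was at 3.04, 2.39, 2.31, 2.96, 2.19 and 3.14 FPKM and did not set the Gcn2-/- groups apart at the level of the whole gene, of which the deletion removes only a part. Markers of other cells differed between groups. The summed FPKM of 7 hepatocyte markers was 20628, 17893, 21974, 11431, 18452 and 8679, that of 10 Kupffer cell and macrophage markers 333, 181, 220.1, 367, 387 and 215, and that of 12 skeletal muscle markers 846, 1215, 5.83, 9.04, 68.9 and 158. In such bulk tissue, fewer cells of a type and less RNA per cell cannot be told apart. Skeletal muscle transcripts were therefore present mainly in the WT groups and at a lower level in the Atf4-/- groups, and the sum of the hepatocyte markers, most of which comes from *Apoa1*, *Ttr* and *Cyp2e1*, was lowest in both knockout groups given ASNase. Single hepatocyte markers did not all follow the sum: *Tat*, a tyrosine-degrading enzyme, was highest in these groups, at 1987 and 2013 FPKM against 613 to 1169 elsewhere, and *Cps1*, of the urea cycle, was at 779 in Gcn2-/- ASNase and 754 in Gcn2-/- PBS. Macrophage markers were also mixed in Gcn2-/- mice. From PBS to ASNase, *Clec4f* (67.3 to 15.9), *Vsig4* (17.7 to 8.56) and *Cd5l* (46.6 to 44.4) were lower. The rest were higher, among them *Marco* (8.32 to 118) and *Lyz2* (54.1 to 134). Summed markers of 4 erythroid genes ran from 94.7 in WT PBS to 4.02 in Atf4-/- ASNase, of B cells from 15.6 to 1.03, of T and NK cells from 4.20 to 0.747 and of cholangiocytes from 39.8 to 20.1. Those of neutrophils ranged from 4.04 to 18.1, of stellate cells from 86.8 to 141 and of endothelial cells from 49.4 to 114.

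In WT PBS liver the 39 transcripts spanned a wide range of levels per length. *Lamp1*, a heavily glycosylated protein of the lysosomal membrane, was highest at 293 FPKM, followed by *Lamp2* and *Ctsl* at 280.2 and 279.9, *Gabarapl1* at 250.5, *Sqstm1* at 249.9, *Gabarap* at 210.9 and *Ctsd* at 205.2. Intervals of these 7 values overlap, so their order is not resolved. *Atg10*, *Atg2b* and *Pik3r4* were lowest at 2.81, 3.00 and 3.70.

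**Figure D1:**
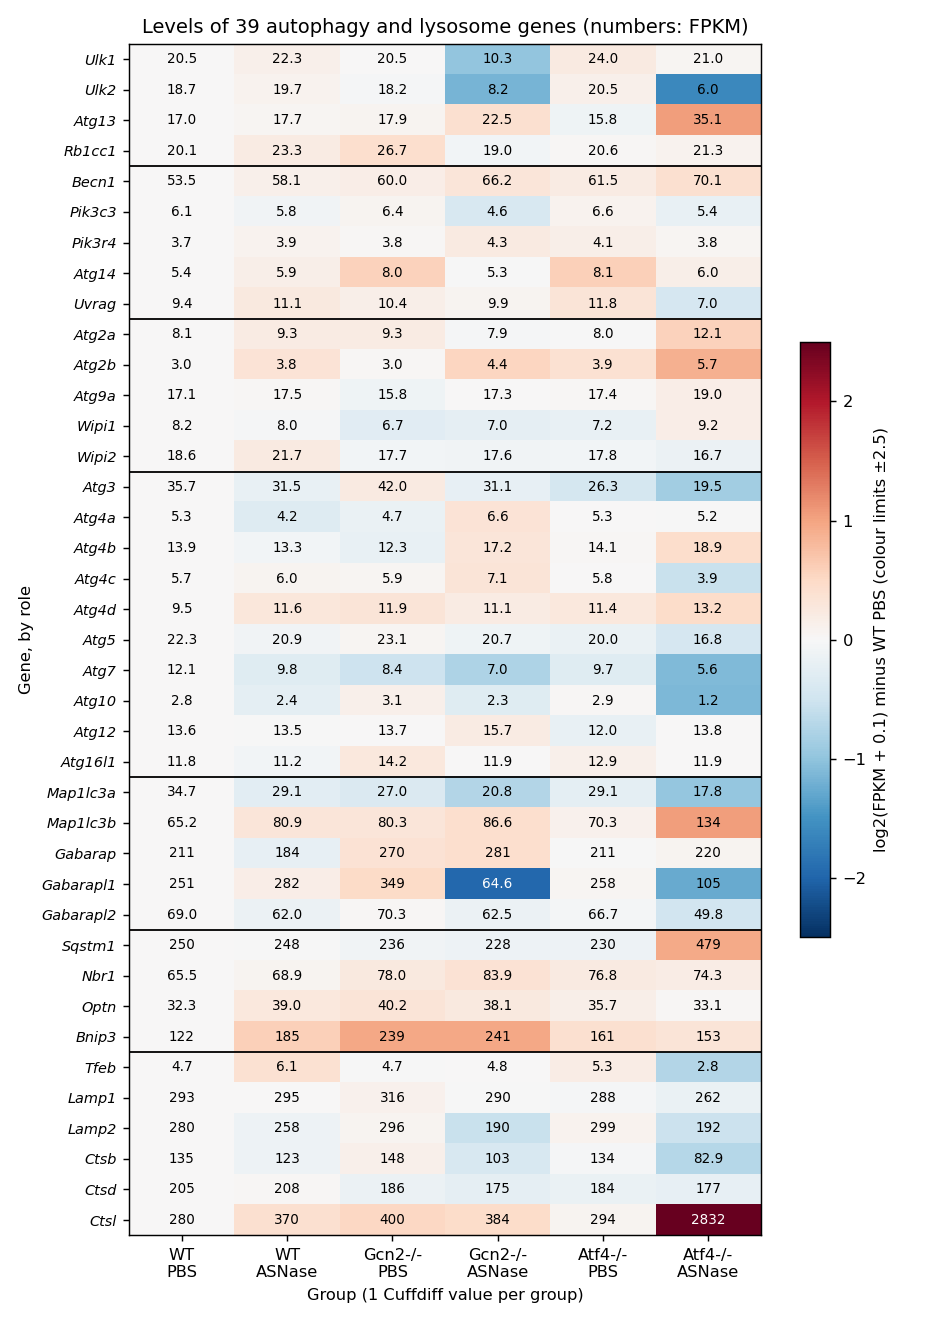
Levels of the 39 genes in the 6 groups, ordered by role, with the FPKM printed in each cell and colour showing log2(FPKM + 0.1) minus its value in WT PBS, limited to 2.5 in either direction. Strong colour is seen mainly in the knockout groups given ASNase, for *Ulk1*, *Ulk2*, *Gabarapl1*, *Ctsl* and a few others. *Bnip3* is also above WT PBS in Gcn2-/- PBS, by 0.97. *Ctsl* at 2832 FPKM lies beyond the colour limit.

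Across the 6 groups these transcripts were more even than most. The range from the lowest to the highest group had a median of 0.62 on the log2 scale, beside 0.84 over the 9815 genes over an FPKM of 3 in any group. It was at most 0.5 for 16 of 39 (41.0%, against 20.2% of all) and over 1 for 11 of 39 (28.2%, against 40.3%). The 16 included *Becn1*, *Pik3r4*, *Atg9a*, *Atg5*, *Atg12*, *Atg16l1*, *Nbr1*, *Lamp1* and *Ctsd*. *Pik3r4*, the regulatory subunit of the lipid kinase, varied least, between 3.70 and 4.31 FPKM. The 11 were *Ulk1*, *Ulk2*, *Atg13*, *Atg3*, *Atg7*, *Atg10*, *Map1lc3b*, *Gabarapl1*, *Sqstm1*, *Tfeb* and *Ctsl*. Atf4-/- ASNase was the highest group for 11 of the 39 and the lowest for 13, so it held an extreme for 24 of them. WT ASNase was highest for 3 and lowest for 3. The same share over all genes was not computed. With ASNase, 18.2% of all eligible genes were beyond the combined error (defined above) in Atf4-/- mice and 1.97% in WT mice.

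To ask whether ASNase altered these genes in animals with an intact pathway, WT ASNase was compared with WT PBS. None of the 39 was called in WT mice (38 were eligible), beside 0.881% of the 9084 eligible genes, and none was beyond the combined error, beside 1.97%. The differences lay within 0.5 for 38 of 39 (97.4%, against 88.5% of all eligible genes), with a median of 0.05 against −0.01. *Bnip3*, a mitochondrial receptor for autophagy, had the largest difference, at 0.59, with 122 FPKM after PBS and 185 after ASNase and overlapping intervals of 56.7 to 188 and 83.1 to 286. *Fgf21* and *Trib3*, targets of the integrated stress response in the same livers, rose by 3.71 and 1.82, and were the only 2 of 10 such reference genes called.

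In Gcn2-/- mice, 1 of the 39, *Gabarapl1*, fell with ASNase and none rose. Calls covered 3.69% of the 9218 eligible genes in this comparison and calls of lower genes 2.13%, so 1 of 39 is close to the background. *Ulk1*, *Ulk2* and *Gabarapl1* were lower beyond the combined error, 3 of 39 beside 6.06% of all genes (11.0% in either direction). Of the 39, 32 stayed within 0.5 (82.1%, against 62.4% of all), and the median was −0.08 against 0.02. By sign alone 24 were lower and 15 higher.

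In Atf4-/- mice, 1 of the 39, *Ulk2*, fell with ASNase and none rose by the rule, although *Ctsl* had the largest difference of the 39. Calls made up 7.37% of the 9485 eligible genes and those of lower genes 4.63%, beside which 1 of 39 is not a high count. *Ulk2* and *Gabarapl1* were lower and *Ctsl* higher beyond the combined error, together 3 of 39 beside 18.2% of all genes in either direction. Within 0.5 were 23 of 39 (59.0%, against 48.5%), with a median of −0.11 against 0.08, and 25 were lower and 14 higher by sign.

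**Figure D2:**
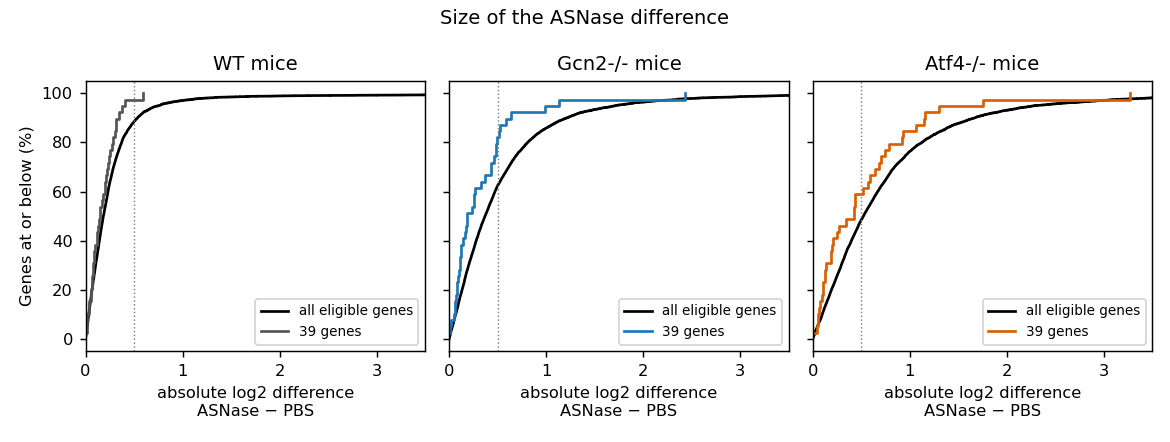
Cumulative share of genes (y axis, %) at or below a given absolute log2 difference between ASNase and PBS (x axis, drawn up to 3.5) in each strain, for the 39 genes in colour and for all eligible genes in black; the dotted line marks 0.5. The coloured line runs above the black one through most of each panel, with 38, 32 and 23 of 39 genes at or below the dotted line in WT, Gcn2-/- and Atf4-/- mice.

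Strains were also compared under the same treatment. Under PBS none of the 39 was called in Gcn2-/- against WT mice (background 1.04%) or in Atf4-/- against WT mice (1.12%), none was beyond the combined error (background 2.68% and 2.64%), and 35 and 38 of 39 stayed within 0.5. *Bnip3* came closest, at 239 FPKM in Gcn2-/- PBS against 122 in WT PBS, a difference of 0.97 that was smaller than its error of 1.09. Under ASNase *Gabarapl1* fell in Gcn2-/- against WT mice, 1 of 39 beside a background of 4.41% in either direction and 2.59% lower, and *Ulk2* fell in Atf4-/- against WT mice, 1 of 39 beside 8.25% and 5.66%. No member was called between Atf4-/- and Gcn2-/- mice under ASNase (background 3.19%), where *Ulk1* and *Ctsl* were higher in Atf4-/- mice beyond the combined error, 2 of 39 beside 9.74% in either direction. Beyond the combined error were also *Ulk1*, *Ulk2* and *Gabarapl1* in Gcn2-/- against WT mice, 3 of 39 beside 11.4%, and *Ulk2*, *Gabarapl1* and *Ctsl* in Atf4-/- against WT mice, 3 of 39 beside 18.9%. Both comparisons with WT ASNase rest on the same WT group, and each knockout ASNase value also enters the comparison with its own PBS group.

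**Figure D3:**
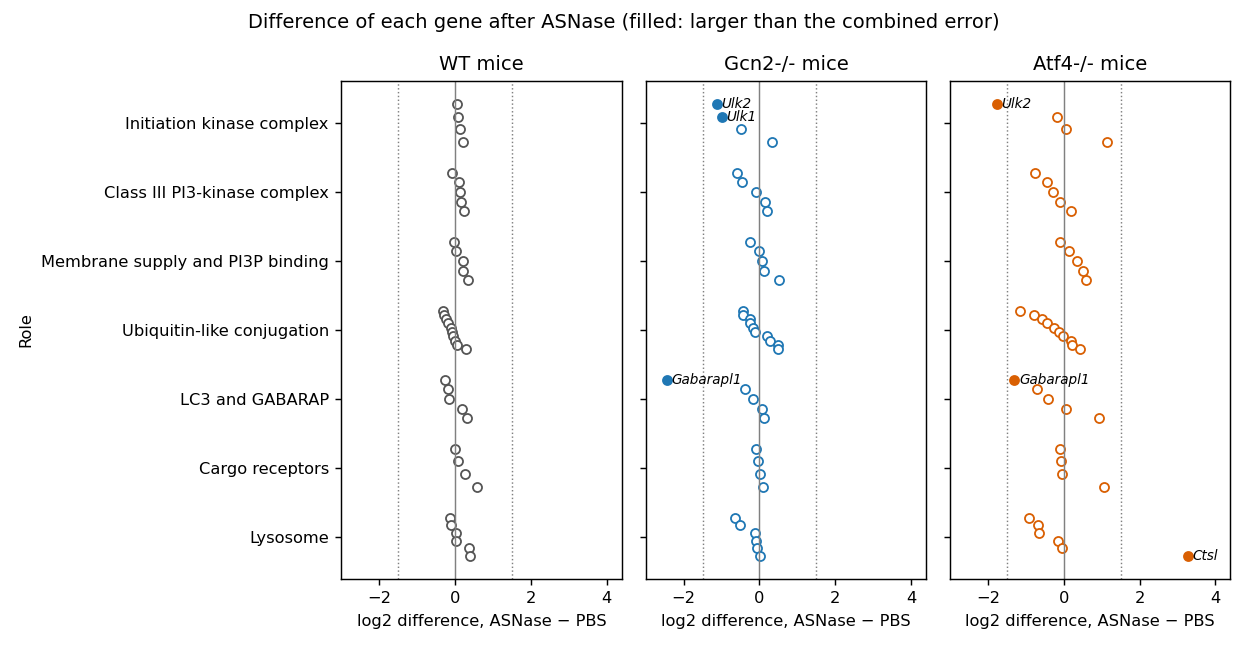
Log2 difference between ASNase and PBS (x axis) for each of the 39 genes, grouped by role (y axis, sorted by size within a role), in WT, Gcn2-/- and Atf4-/- mice; filled points are beyond the combined error and dotted lines mark 1.5 in either direction. All WT points lie between −0.32 and 0.59, *Gabarapl1* reaches −2.43 in Gcn2-/- mice, and *Ulk2* at −1.76 and *Ctsl* at 3.27 stand outside the dotted lines in Atf4-/- mice.

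Of the initiation complex, *Ulk1* and *Ulk2* encode the related protein kinases that receive nutrient signals, and *Atg13* and *Rb1cc1* (FIP200) encode proteins that hold the complex together. *Ulk2* (chromosome 11, 61775649 to 61855073) was measured at 18.7, 19.7, 18.2, 8.24, 20.5 and 6.01 FPKM. The 4 groups that were WT or received PBS lay between 18.2 and 20.5, and both knockout groups given ASNase lay below them. In Atf4-/- mice *Ulk2* fell by 1.76 on the log2 scale with ASNase (error 0.90), to 29.3% of the PBS value, with intervals of 3.29 to 8.72 and 11.5 to 29.6; it ranked 506 from the lowest of 9485 eligible genes. In Gcn2-/- mice the difference was −1.13 (error 0.91), beyond the combined error, with intervals of 4.49 to 12.0 and 10.1 to 26.3 that overlap. The response of *Ulk2* in Atf4-/- mice differed from that in WT mice by −1.84 (error 1.27), past both limits set for such a difference (over 1.5 and over its error), which 7.39% of 8770 genes passed, whereas the same difference for Gcn2-/- mice was −1.21 (error 1.28). Both differences rest on the same WT groups. The response of *Ulk2* in Atf4-/- mice differed from that in Gcn2-/- mice by −0.62 (error 1.28). Unequal responses of these strains were therefore not resolved. Against WT ASNase, *Ulk2* fell by 1.70 in Atf4-/- mice, and it had a difference of −1.25 in Gcn2-/- mice, beyond the combined error.

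*Ulk1*, the paralog, was at 20.5, 22.3, 20.5, 10.3, 24.0 and 21.0 FPKM. Only the Gcn2-/- ASNase value stood apart from the other 5, which lay between 20.5 and 24.0. Its ASNase difference was −0.99 in Gcn2-/- mice (error 0.86), with intervals of 5.95 to 14.7 and 11.8 to 29.3 that overlap, and −0.19 in Atf4-/- mice (error 0.93). Under ASNase it was higher in Atf4-/- than in Gcn2-/- mice by 1.02, which exceeds the error of 0.93, while *Ulk2* differed by −0.45 there. The difference between the 2 strains' responses was 0.80 for *Ulk1* with an error of 1.27, so unequal responses of the strains were not resolved. *Atg13*, named after its values were seen, was at 17.0, 17.7, 17.9, 22.5, 15.8 and 35.1 FPKM, and its difference of 1.14 in Atf4-/- mice was just under its error of 1.15. *Rb1cc1* stayed between 19.0 and 26.7. In Gcn2-/- mice 3 of the 4 were lower by sign with a median of −0.74, and in Atf4-/- mice 2 of 4 with a median of −0.07.

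The class III PI3-kinase complex makes the lipid PI3P on the forming membrane. None of its 5 genes was beyond the combined error in any of the 8 comparisons, beside 1.97% to 18.9% of all eligible genes. A set of 5 is too small for this to set it apart from other genes. *Uvrag*, the subunit of the complex that acts on endosomes, was at 9.44, 11.1, 10.4, 9.90, 11.8 and 7.00 FPKM, with its lowest value in Atf4-/- ASNase and a difference of −0.75 there. *Atg14*, the subunit that directs the complex to autophagosomes, was at 5.35, 5.94, 8.03, 5.33, 8.12 and 5.97 FPKM. It was highest in both knockout groups given PBS, by 0.58 and 0.59 over WT PBS, and all its intervals overlap. *Becn1*, the scaffold, ran from 53.5 to 70.1, *Pik3c3*, the catalytic subunit, from 4.63 to 6.56 and *Pik3r4* from 3.70 to 4.31.

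Of the 5 genes for lipid transfer and PI3P binding, none was beyond the combined error anywhere, beside the same 1.97% to 18.9% of all eligible genes. *Atg2b*, which encodes a lipid transfer protein that feeds the growing membrane, was at 3.00, 3.84, 3.05, 4.39, 3.94 and 5.66 FPKM. Within each strain the ASNase value was the higher, by 0.35, 0.51 and 0.51 in WT, Gcn2-/- and Atf4-/- mice, with overlapping intervals. Its partner *Atg2a* was at 8.06, 9.26, 9.32, 7.90, 8.00 and 12.1, highest in Atf4-/- ASNase. *Atg9a*, a scramblase carried on small vesicles, ran from 15.8 to 19.0, and the PI3P readers *Wipi1* and *Wipi2* from 6.67 to 9.17 and from 16.7 to 21.7. The median ASNase differences of the 5 were 0.20, 0.08 and 0.34 in the 3 strains.

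The conjugation genes formed the largest set, with 10 members. None was beyond the combined error in any comparison, beside 1.97% to 18.9% of all eligible genes. *Atg7* encodes the activating enzyme of both systems, *Atg3* and *Atg10* the conjugating enzymes, *Atg12*, *Atg5* and *Atg16l1* the complex that places LC3 on lipid, and the *Atg4* genes the proteases that trim LC3 and release it. *Atg3* was at 35.7, 31.5, 42.0, 31.1, 26.3 and 19.5 FPKM, and *Atg10* at 2.81, 2.37, 3.08, 2.27, 2.88 and 1.24. Both were lowest in Atf4-/- ASNase, with ASNase differences of −0.43 and −1.15 in that strain. *Atg10* was under an FPKM of 3 in 5 of the 6 groups and was not eligible in 6 of the 8 comparisons. *Atg7*, named after its values were seen, was at 12.1, 9.77, 8.42, 7.02, 9.73 and 5.61, also lowest in Atf4-/- ASNase, where it differed by −0.78 from PBS. *Atg5* ran from 16.8 to 23.1, *Atg12* from 12.0 to 15.7 and *Atg16l1* from 11.2 to 14.2. The *Atg4* proteases did not share a direction in Atf4-/- mice, with differences of −0.02 for *Atg4a*, 0.42 for *Atg4b*, −0.57 for *Atg4c* and 0.21 for *Atg4d*. By sign 8, 6 and 7 of the 10 were lower with ASNase in WT, Gcn2-/- and Atf4-/- mice, with medians of −0.08, −0.13 and −0.19.

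LC3 and GABARAP proteins are small ubiquitin-like proteins that become anchored to the autophagosome and bind receptors. *Gabarapl1* (chromosome 6, 129533200 to 129542331) was at 250.5, 282, 349, 64.6, 258 and 104.8 FPKM. Both knockout groups given ASNase were below the 4 other groups, which lay between 250.5 and 349. In Gcn2-/- mice *Gabarapl1* fell with ASNase by 2.43 on the log2 scale (error 0.95), from an interval of 172 to 527 to one of 37.1 to 92.0, so that 18.5% of the PBS value was left, and it ranked 115 from the lowest of 9218 eligible genes. In Atf4-/- mice the difference was −1.30 (error 0.95), beyond the combined error but with overlapping intervals of 59.3 to 150.3 and 130.2 to 386. Against WT ASNase it fell by 2.13 in Gcn2-/- mice and had a difference of −1.43 in Atf4-/- mice, beyond the combined error. The response in Gcn2-/- mice differed from that in WT mice by −2.61 (error 1.37), past both limits, as did 4.61% of 8650 genes. The same difference for Atf4-/- mice was −1.47 (error 1.37), under the limit of 1.5. The response in Atf4-/- mice differed from that in Gcn2-/- mice by 1.13 (error 1.35). Unequal responses of these strains were therefore not resolved.

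None of the other 4 of the family was called or beyond the combined error with ASNase in any strain. *Map1lc3b*, which encodes the LC3 protein used most often as a marker of autophagosomes, was at 65.2, 80.9, 80.3, 86.6, 70.3 and 134 FPKM, highest in Atf4-/- ASNase. Its intervals reached down to 0 in every group, and its difference of 0.93 in Atf4-/- mice stood beside an error of 4.77. The locus given for *Map1lc3b* runs from 119910360 to 124345724 on chromosome 8, whereas the annotated gene runs from 121590361 to 121598760, so the values may be shared among transcripts of a merged region and are uncertain. The locus was over 1.3 times as long as the annotated gene for 7 of the 39, *Map1lc3b* among them. The others were *Ctsd* (5.13 times), *Sqstm1* (3.17), *Ctsb* (2.36), *Atg4b* (2.15), *Atg4d* (1.82) and *Becn1* (1.49), and the same uncertainty applies to their values. *Gabarap*, given in full after its values were seen, was at 210.9, 183.9, 269.6, 281.4, 210.9 and 220.1, *Gabarapl2* between 49.8 and 70.3, and *Map1lc3a* between 17.8 and 34.7 with its lowest value in Atf4-/- ASNase. With ASNase *Map1lc3a* differed by −0.37 and −0.71 in Gcn2-/- and Atf4-/- mice and *Gabarapl2* by −0.17 and −0.42, the same sign as *Gabarapl1*, and *Gabarap* by 0.06 in both. Differences in response between members of the family were not tested.

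Among cargo receptors, *Sqstm1* encodes p62, which binds ubiquitin and LC3, gathers cargo and is itself degraded by autophagy. It was at 249.9, 248, 236, 228, 229.8 and 479 FPKM. The 5 other groups lay within 228 to 249.9, and Atf4-/- ASNase stood above them with 2.09 times the PBS value. The difference of 1.06 did not exceed its error of 1.37, the intervals of 139 to 819 and 85.6 to 374 overlap, and the locus measured runs past the annotated gene, from 50174444 to 50210827 on chromosome 11 against 50199366 to 50210827. *Bnip3* was at 122, 185, 239, 241, 161 and 153 FPKM, highest in both Gcn2-/- groups and without an ASNase difference there (0.01). *Nbr1*, a receptor for protein aggregates, ran from 65.5 to 83.9 and *Optn*, a receptor for damaged mitochondria and bacteria, from 32.3 to 40.2. None of the 4 was called in any comparison, beside 0.881% to 8.25% of all eligible genes. None was beyond the combined error either, beside 1.97% to 18.9%.

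In the lysosomal set, *Ctsl* (chromosome 13, 64363214 to 64370306), which encodes the cysteine protease cathepsin L, had the widest range of all 39. It was at 279.9, 370.2, 399.9, 384, 294 and 2832 FPKM. The 5 other groups lay between 279.9 and 399.9, and Atf4-/- ASNase was 9.63 times the PBS value of its strain. That is a difference of 3.27 (error 1.56), ranked 82 from the highest of 9485 eligible genes. It was not called, since the interval of 157 to 5506 FPKM overlaps that of 140.5 to 448 in Atf4-/- PBS. In WT and Gcn2-/- mice the ASNase differences were 0.40 and −0.06. The response in Atf4-/- mice differed from that in WT mice by 2.86 (error 1.87), past both limits, and from that in Gcn2-/- mice by 3.33 (error 1.92), as did 4.2% of 8911. Against WT ASNase and Gcn2-/- ASNase the Atf4-/- ASNase value was higher by 2.94 and 2.88, beyond the combined error. How many of the 3 mice carry this value cannot be told from a value per group.

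Macrophages express *Ctsl* too. The summed level of the 10 Kupffer cell and macrophage markers was 387 FPKM in Atf4-/- PBS and 215 in Atf4-/- ASNase. All 10 were above 0 in each group, 9 of the 10 were lower with ASNase in that strain, and only *Marco* was higher, at 67.3 against 9.22. The part of macrophages in the *Ctsl* values was not tested. Neither of the other 2 cathepsins was called or beyond the combined error in any comparison. *Ctsb*, another cysteine protease, was at 135, 123, 148, 103, 134 and 82.9, and *Ctsd*, an aspartic protease, lay between 174.8 and 208. *Ctsl* made up 45.1% of the summed FPKM of the 3 cathepsins in WT PBS and 91.6% in Atf4-/- ASNase, where the sum was 3092 against 620.4.

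*Tfeb* was expressed at a low level, at 4.71, 6.13, 4.68, 4.76, 5.35 and 2.78 FPKM. Its lowest value was in Atf4-/- ASNase, with a difference of −0.92 beside an error of 2.08. *Lamp1* stayed between 262 and 316. *Lamp2*, which encodes the membrane protein needed for fusion and for uptake of single proteins, was at 280.2, 258, 296, 189.7, 299 and 192, with a difference of −0.64 in both knockout strains given ASNase. *Lamp2* and *Ctsb*, both named after their values were seen, thus had their lowest values in the knockout groups given ASNase, with every interval overlapping. By sign 5 of the 6 lysosomal genes were lower with ASNase in each knockout strain, with medians of −0.11 and −0.39 against 0.01 in WT mice. The summed hepatocyte markers were also lowest in these groups, and their part in these differences was not tested.

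**Figure D4:**
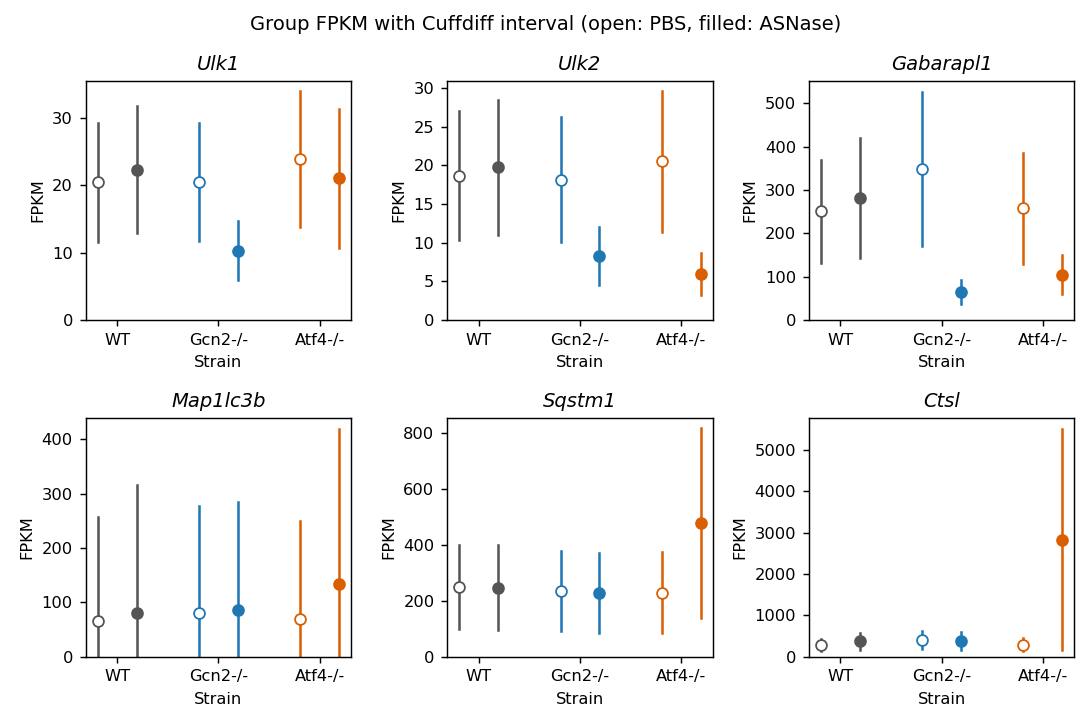
FPKM (y axis) with its Cuffdiff interval (vertical line) for 6 genes in each strain (x axis), open circles for PBS and filled circles for ASNase. The intervals of *Gabarapl1* in Gcn2-/- mice and of *Ulk2* in Atf4-/- mice are separate, that of *Ctsl* in Atf4-/- ASNase runs from 157 to 5506 FPKM, and those of *Map1lc3b* reach 0.

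The 5 genes with a TCACGTG in their window were set beside the 27 whose window held none, and the 7 genes without a window were kept apart. Of the 5, *Atg7* and *Atg14* have windows that lie wholly inside longer gene models. Part of the *Ctsd* window lies inside one as well, with its E-box at −98. With ASNase, 2 of 5 were lower in WT mice (median 0.01), 5 of 5 in Gcn2-/- mice (−0.26) and 5 of 5 in Atf4-/- mice (−0.43). Of the 27, 9, 14 and 16 were lower (medians 0.08, −0.01 and −0.07), and of the 7, 5, 5 and 4 (medians −0.07, −0.37 and −0.12). None of the 5 was called or beyond the combined error, so the shared sign is of small differences. *Ulk2* and *Gabarapl1*, with the largest lower values, and *Sqstm1* are not among them.

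Other genes of the pathway were read from lists. Their counts of calls stand beside 0.881%, 3.69% and 7.37% of all eligible genes called with ASNase in WT, Gcn2-/- and Atf4-/- mice. Of 20 further autophagy genes measured, *Trp53inp1*, whose product binds LC3 and promotes autophagy under stress, rose in Atf4-/- mice from 25.2 to 110 FPKM (2.12) and was the only call with ASNase in any strain. The list's medians over eligible genes, as for the lists that follow, were 0.04, −0.03 and −0.17 in WT, Gcn2-/- and Atf4-/- mice. None of 11 further selective receptors was called with ASNase, and the medians were 0.10, 0.09 and 0.03. *Stbd1*, a receptor for glycogen, fell in Gcn2-/- against WT mice under ASNase, at 29.6 against 86.1 FPKM. Of 22 genes for TFEB relatives and mTORC1 regulation at the lysosome, *Fnip2*, a partner of folliculin, fell in Atf4-/- mice from 8.02 to 2.50 FPKM (−1.64) and was the only call with ASNase. The medians of that list were 0.21, −0.18 and −0.08.

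The proton pump that acidifies lysosomes showed no call among its 15 subunit genes in any of the 8 comparisons, beside 0.881% to 8.25% of all eligible genes. Its medians with ASNase were −0.08, −0.03 and −0.17. Of 30 further lysosomal enzymes, *Lipa*, the acid lipase that releases cholesterol and fatty acids, fell in Atf4-/- mice from 78.8 to 23.8 FPKM (−1.73), and was lower beyond the combined error in Gcn2-/- mice, from 93.7 to 42.0 (−1.15). *Lgmn*, the asparaginyl endopeptidase that processes cathepsins, was higher in Atf4-/- than in WT mice under ASNase, at 83.5 against 26.8 FPKM, and was called there. The medians of this list were −0.08, −0.18 and −0.29. Of 14 further membrane and sorting proteins, *Cd63*, a tetraspanin of late endosomes, rose in Atf4-/- mice from 7.09 to 44.9 FPKM (2.65). *Sort1*, a sorting receptor, fell in Gcn2-/- mice from 4.83 to 1.37 (−1.75) and in Atf4-/- mice from 5.68 to 1.20 (−2.15), and *Gm2a*, a lipid-binding activator protein, fell in Atf4-/- against WT mice under ASNase, at 7.06 against 28.3. Medians of that list were −0.14, −0.36 and −0.54.

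Reference genes of 2 other pathways give the setting of these values. Of 10 genes of the integrated stress response, 5 rose in Atf4-/- mice with ASNase, among them *Trib3* by 5.33, *Asns* by 4.87 and *Atf3* by 3.75, and 1 fell in Gcn2-/- mice, *Fgf21*, by 3.25. Of 7 NRF2 targets, 1 rose and 1 fell in both knockout strains: *Hmox1*, which degrades heme, rose by 1.62 and 1.91 in Gcn2-/- and Atf4-/- mice, and *Gclc*, of glutathione synthesis, fell by 1.66 and 2.10. *Sqstm1* is a known target of both factors, and its own values did not pass either limit.

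Several of the genes share their position with another annotated gene, and the library kit does not mark strand, so reads in the overlap cannot be assigned to either strand. *Sqstm1* overlaps *Mrnip*, which was at 1.04 to 3.83 FPKM, *Ctsb* overlaps *Fdft1* at 11.4 to 54.4 FPKM, and *Map1lc3b* overlaps *Gm20388* and *Zcchc14* at 3.15 to 6.32 and 5.44 to 9.01. *Ctsl* and *Gabarapl1* each overlap 2 annotated noncoding transcripts for which no value was used here. *Ulk1* and *Ulk2* overlap no other annotated gene. Skeletal muscle, whose transcripts were highest in the WT groups, also expresses *Gabarapl1*, *Sqstm1*, *Bnip3* and *Map1lc3a*, and its part in the values of these genes was not tested.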

How the data were processed

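Liver poly-A RNA of 18 mice (3 in each of 6 groups) was sequenced as single-end reads without strand. The authors aligned reads to mm10 with TopHat, merged Cufflinks assemblies and deposited FPKM values from Cuffdiff, 1 per gene and group pooled over its 3 libraries, with interval bounds in FPKM and a status. Samples were grouped by their labels, and each value column was matched to 1 group, with 0 columns left over. Depth per library was not used here, since FPKM values carry no counts, so the interval gives the precision.

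Differences of log2(FPKM + 0.1) were computed over the whole table in Python 3.11.15 (numpy 2.4.6, pandas 2.3.3). The FPKM limit of 3 and the log2 limit of 1.5 are those of the study's methods, with separate intervals in place of its q value. A combined error is the root of the summed squares of both half-widths. Each half-width is the distance from value to upper bound, divided by the value plus 0.1 and by the natural logarithm of 2. This approximates an interval on the log2 scale. It exceeds the log2 distance to the upper bound, so fewer differences can pass it than with that distance. Alternatives were another pseudocount, FPKM limit, log2 limit, interval condition and scaling. The 40 members, the pathway lists and the marker lists were chosen with earlier results of these data known.

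Values of every group are given for members called in any comparison and for the 2 members of each role with the widest range; others are given by range, or named as chosen after their values were seen. From other lists, up to 3 called genes of the largest difference are named. Promoter windows came from RefSeq (GRCm38.p6), positions from the table or, for annotated genes, GENCODE. Protein sequences were not compared here.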

Additional observations from a re-analysis of the deposited data

Results flagged for a closer look

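With 1 value per group, none of the following differences between strains was tested. Each was larger than 1.5 on the log2 scale and larger than the combined error of its 4 values. Over all eligible genes, 4.61% passed both limits for Gcn2-/- against WT responses. The shares were 7.39% for Atf4-/- against WT and 4.2% for Atf4-/- against Gcn2-/- responses. Differences of this size were therefore not particular to the 39 genes. For *Gabarapl1* the ASNase response of Gcn2-/- mice minus that of WT mice was −2.61, from −2.43 and 0.17. For *Ulk2* the response of Atf4-/- mice minus that of WT mice was −1.84, from −1.76 and 0.08. For both genes the responses of the knockout strains were not resolved from each other. For *Ctsl* the response of Atf4-/- mice minus that of WT mice was 2.86, and minus that of Gcn2-/- mice 3.33, from 3.27, 0.40 and −0.06 in Atf4-/-, WT and Gcn2-/- mice. Both differences of *Ctsl* rest on the value of 2832 FPKM in Atf4-/- ASNase, whose interval runs from 157 to 5506.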

How the results depend on the processing

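Counts and medians of the 39 genes were computed again under a pseudocount of 1 or 0, an FPKM limit of 1 or none, a log2 limit of 1, no interval condition, the combined error in place of separate intervals, and median-ratio scaling, which shifted groups by −0.03 to 0.04 on the log2 scale. Of 128 such values, 121 stayed close to the reported one, none changed sign, and 7 moved. With no interval condition, and equally with the combined error, the count of calls became 2 (*Ulk2* and *Ctsl*) for ASNase against PBS in Atf4-/- mice and 2 (the same genes) for Atf4-/- against WT mice under ASNase, and 1 (*Ctsl*) for Atf4-/- against Gcn2-/- mice under ASNase. With median-ratio scaling, 2 genes (*Ulk2* and *Gabarapl1*) had separate intervals in Atf4-/- against WT mice under ASNase. All calls gained were those of *Ctsl*, whose interval is wide. No paired analysis was possible because the table holds no values of single libraries, and for the same reason no replicate could be left out. FPKM values are already scaled to the mapped reads of each library, and depth was not examined further. The width of the intervals, close to 50.9% of the value at most by group median, limits what can be resolved.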
